A study of Mus musculus with 3 samples.

Results

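The 1-cell mouse embryo was compared with the germinal vesicle (GV) oocyte, which is the fully grown oocyte before meiosis resumes, at the cytosines called as 5-methylcytosine (m5C) in mRNA of both. Rows of the 2 site lists were matched on chromosome, position and strand. This gave 6478 shared sites in 3413 genes, of 40298 distinct sites in the whole series. The GV oocytes came from ovaries of wild-type C57BL/6J females of 7 to 8 weeks, 48 h after the females received 10 IU of PMSG (pregnant mare serum gonadotrophin). The 1-cell embryos were flushed from wild-type C57BL/6J females of 7 to 8 weeks that had been mated with C57BL/6J males, 24 h after 5 IU of human chorionic gonadotrophin (hCG) that followed 5 IU of PMSG. The PMSG doses are those of the labels, while the methods of the study describe the embryos as induced like the oocytes, so a dose difference is not settled. The methods of the study describe a treatment with hyaluronidase at 10 IU/ml to take off the zona pellucida. The series text gives about 200 embryos for a library, so a library is a pool. The MII oocyte library was not compared here.

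m5C is made in mRNA by the RNA methyltransferases NSUN2, at sites followed by G-rich sequence in a stem (Type I), and NSUN6, at the motif CUCNA whose first C is methylated (Type II). Here, as in the study, every site without CUCNA was counted as Type I, with no check for G or a stem. Of 6125 such shared sites, 90 had no G in the next 4 bases. Between these stages the oocyte completes maturation and is fertilized while it transcribes next to nothing, and many of its stored mRNAs are deadenylated and destroyed. Transcription from the embryonic genome starts weakly late in the 1-cell stage, and its major wave comes later. Bisulfite turns unmethylated C into U and leaves m5C as C, so the m5C level of a site is the share of its reads that stay C. New methylation and a loss of unmethylated copies would each raise such a share, and they cannot be told apart in it. Fewer copies of a methylated mRNA and more copies of an unmethylated one would each lower it, and cannot be told apart either.

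There was 1 library per stage, without replicates, and the tests below compare the reads of these 2 libraries, not the stages. Coverage at the shared sites summed to 3350204 reads in the GV oocyte and 946041 reads in the 1-cell embryo. The conversion step is worded differently in the labels of the oocytes and of the embryo, so the library batch and the stage cannot be told apart. The deposited 1-cell list, used for every 1-cell value here, differs in coverage and level from the supplementary list of the study at most sites that could be compared, with lower coverage and a higher level at the median, while the GV lists match at such sites. Which 1-cell list is final is not settled. The unconverted background of a gene was recovered from the deposited p-values. Its median over shared sites, where it was recovered, was 0.302% in the GV oocyte and 0.490% in the 1-cell embryo. No rate was recovered from 1278 sites of the GV list and 373 of the 1-cell list. As to identity, 7 of 14 oocyte marker genes had a shared site. Of 16 granulosa and cumulus markers, 1 gene had a site in the GV list and 2 in the 1-cell list, with 125 and 447 reads in all, and none had a shared site. None of 13 genes chosen as newly transcribed in embryos, among them the Zscan4 family, had a site in either list. The major wave of transcription comes after this stage, so that absence does not identify the stage. The lists hold called sites only, so an expressed gene without methylation would be missed. The study reports only low-level methylation in follicle cells, so these counts do not measure how many such cells were present.

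The sites that carry the comparison are shown with 12 bases before the site. The capitals mark the methylated C and the 4 bases after it, which decide between Type I and Type II. The bases were read from GRCm38, 5′ to 3′ on the strand of the gene. The first 4 are Type I sites that rose, the next 3 are Type I sites that fell, and then come Type II sites, of which the last held its level.
Aff1: gcucucgccgcuCAGGGacuccccaccac
Mknk1: ccuagcacacauCCAGAagcggaagcacu
Gpr3: ccugguguccugCGAGAacgcgcuggugg
Tarbp2: uggccgccaaccCGGGCaagaccccgauc
Aes: ucacucucugcuCUGGGuucucagaccca
Spint1: ggggccaccuucCUGGGuuccccgacggc
Entpd6: gaacggcacagaCGAAGguguuucggccu
Lyrm4: caacauggcagcCUCCAgccgcgcacaag
Dsn1: cucaagcuccccCUCCAgagcucaccuuc
Lsm14b: gaucagccucauCUCCAaggcgcagaucc

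The share of GV sites that were also listed in the embryo followed their coverage. Of GV sites with 20 to 49 reads, 7.20% were in the 1-cell list. The share was 40.7% at 100 to under 200 reads and 88.6% at 500 reads or more. In the last class, sites with GV levels of 10 to 15% were found again in 81.25% of cases, and those of 30 to 50% in 94.4%. The lists hold only sites with at least 20 reads, a level of at least 10% and at least 5 unconverted reads. A deeply read GV site was thus mostly still above these limits in the embryo, and the limits remove part of the falls from view.

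The same cytosines had higher m5C levels in the 1-cell embryo. At the median, a shared site had a level of 20.8% in the GV oocyte and of 44.7% in the 1-cell embryo. The difference had a median of 19.2 percentage points (95% interval of the median 18.7 to 19.8), with quartiles of 8.02 and 33.2 points. By a two-sided Fisher's exact test of unconverted against converted reads, with Benjamini-Hochberg adjustment over all 6478 sites, 4284 sites (66.1%) were higher in the 1-cell embryo and 68 (1.05%) were lower at an adjusted p under 0.05. Without a test, 5858 sites had a higher value and 619 a lower one. After the background of the gene was taken off, at sites where it was recovered in both libraries, the median difference was 19.3 points. The interval of the median reflects the spread between sites and treats them as independent, although they share libraries and genes. The intervals of single sites and the tests cover counting error only, and the reads carry no molecular identifiers.

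**Figure D1:**
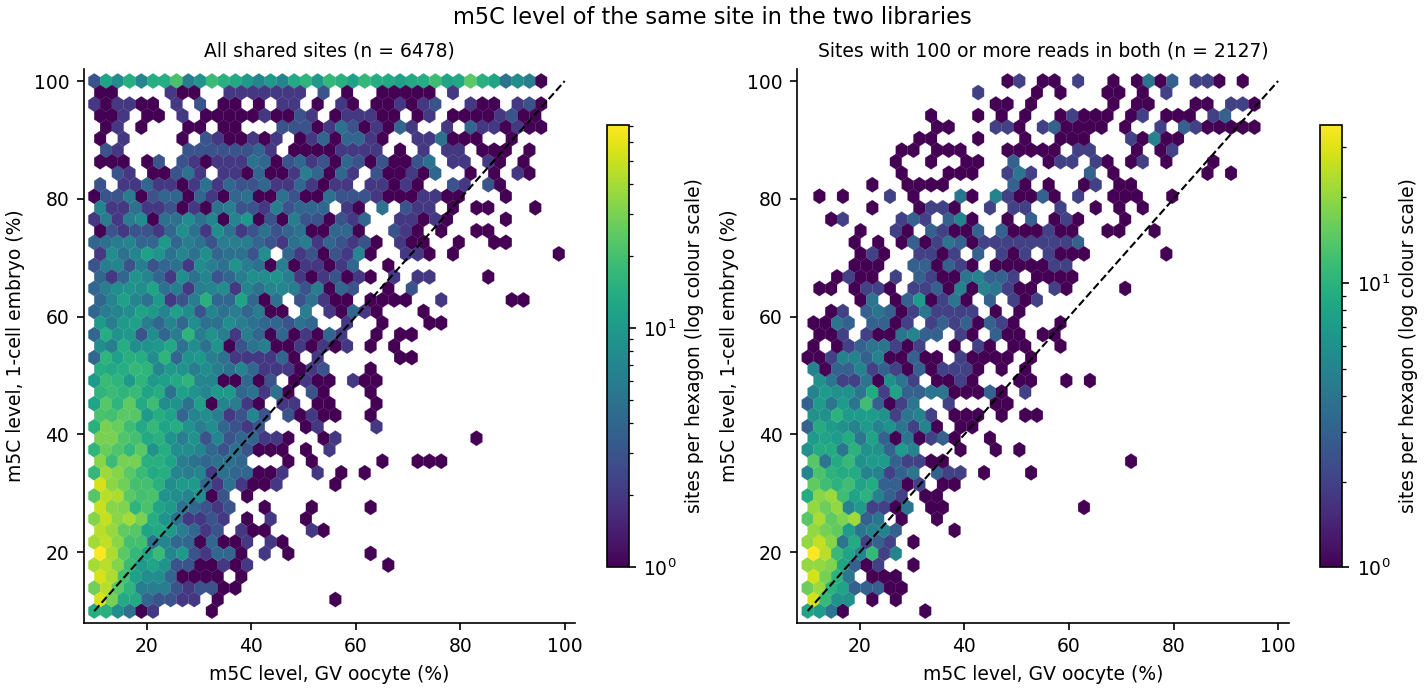
Each hexagon holds shared sites at their m5C level in the GV oocyte (x axis, %) and in the 1-cell embryo (y axis, %), coloured by the number of sites on a log scale, and the dashed line marks equal levels. Most sites lie above the line for all 6478 sites (left) and for the 2127 with at least 100 reads in both libraries (right), and the row at the top left holds the 461 sites at 100% in the embryo.

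The size of the rise depended on how deeply the embryo was read. Sites with 20 to 29 reads in the 1-cell embryo had a median difference of 30.2 points, and those with 200 reads or more one of 14.2 points. The need for 5 unconverted reads raises the level that a thinly covered site must show to be listed. The direction was the same in the deep class, where 755 of 891 sites (84.7%) were higher and 4 were lower. With at least 100 reads in both libraries, 2127 sites in 1267 genes went from a median of 19.3% to 37.4%, and 75.2% of them were higher.

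The starting level mattered as well. Among these deeply read sites, those at 10 to 15% in the GV oocyte gained a median of 11.6 points and those at 30 to 40% gained 25.1 points. Sites at 70% or more, which have little room left, gained 11.5 points, from 78.8% to 92.8%. On the odds scale the median site had 2.80 times the GV odds of being read as C. Sites with 500 reads or more in the embryo had 2.19 times. A shift of equal odds at every site would leave only counting error between sites. Beyond that error, the ln odds shift still had an SD of 0.420 between sites in this deepest class, and of 0.836 between sites of 20 to 49 reads. The order of the sites was largely kept, with a Spearman rho of 0.748 and a Pearson r of 0.809 between the levels of the 2127 deeply read sites. These are descriptions across sites, which share libraries and genes.

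**Figure D2:**
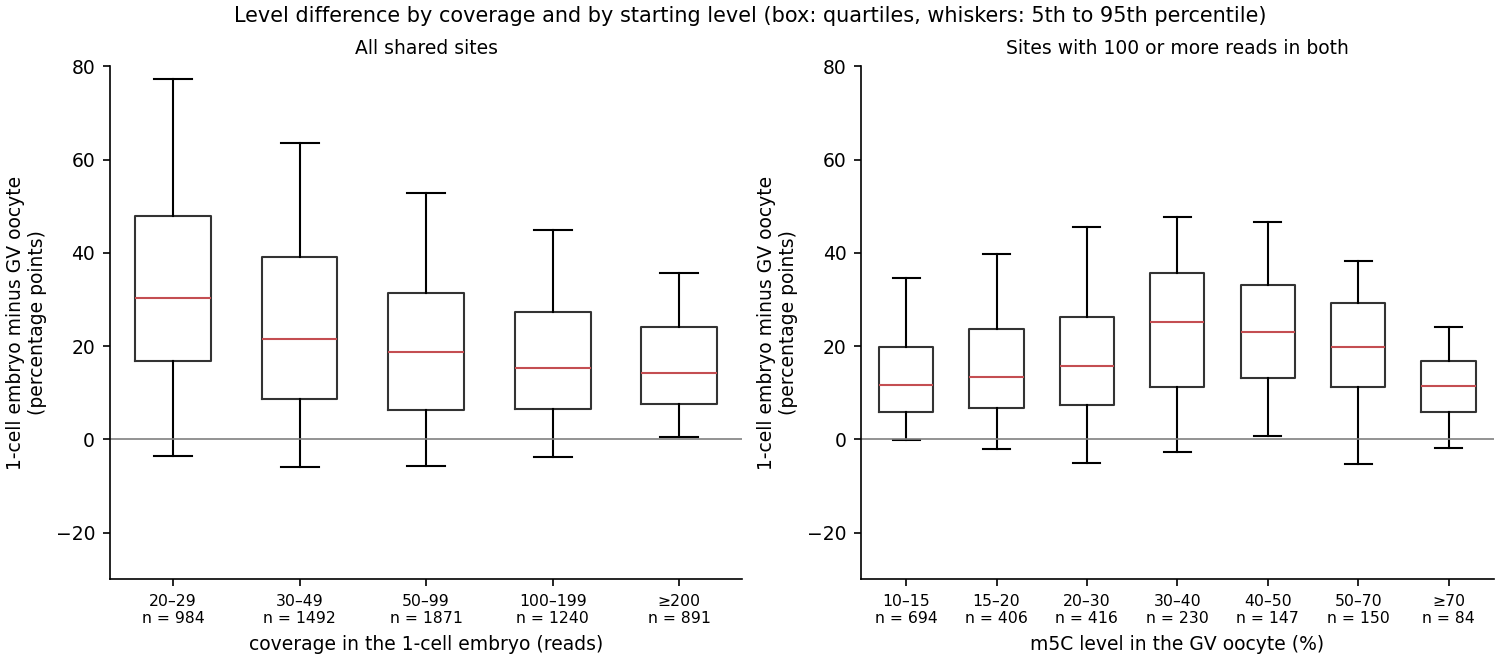
Box plots of the level difference (y axis, percentage points, 1-cell embryo minus GV oocyte) by coverage in the embryo for all shared sites (left) and by GV level for sites with at least 100 reads in both (right). The medians (red lines) fall from 30.2 points at 20 to 29 reads to 14.2 points at 200 reads or more, and on the right they are highest at GV levels of 30 to 40%, at 25.1 points.

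The largest rises among sites with at least 100 reads in both libraries took sites from a minority to a large majority of reads. Daglb, which encodes a diacylglycerol lipase, went from 12.8% of 514 reads to 79.7% of 123 reads. Strap, a component of the SMN complex, went from 17.4% of 619 reads to 80.9% of 136 reads at a 5′ UTR site. In Aff1, a scaffold of the super elongation complex of RNA polymerase II, the CDS site at chr5:103834270 in exon 11 had 13.5% of 407 reads (95% Wilson interval 10.5 to 17.2%) in the GV oocyte and 76.7% of 129 reads (68.7 to 83.2%) in the embryo. The difference of 63.2 points passed Fisher's exact test (adjusted p = 8.19e-39).

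Others of the 10 highest sites are given with what their gene encodes, and whether any function is more common among them was not tested. Gpr3 encodes the receptor whose cyclic AMP signal holds the oocyte in meiotic arrest. Its site at chr4:133211192 had 22.9% of 485 reads in the GV oocyte and 81.7% of 175 reads in the embryo (58.8 points, Fisher's exact test, adjusted p = 4.88e-41). Mknk1 encodes a kinase of the cap-binding protein eIF4E, and its site rose from 27.9% of 526 reads to 87.0% of 123 reads. The site of Tarbp2, the partner of Dicer, rose from 27.7% of 393 reads to 85.9% of 170 reads. These sites were picked as the largest differences past the test, so intervals that stand far apart and low p-values follow from that choice. Sfpq, a paraspeckle and splicing protein, rose from 17.1% of 744 reads to 76.2% of 105 reads. Abt1 and Mast2 gained 60.4 and 59.5 points. The remaining site of the 10 highest gained 58.9 points and lies in Gm27021, which overlaps Emc8 on the same strand, so its gene is uncertain.

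The 10 largest falls at this depth were smaller than these rises, and all were CDS sites of Type I. Most of the 2127 sites at this depth were as well, with 1629 in the CDS and 2015 of Type I. Of the 22 lower sites at this depth, 17 were in the CDS and 17 were of Type I. The size of a fall is bounded by the lists, since a shared site cannot lie under 10% in the embryo. None of the 694 sites at 10 to 15% in the GV oocyte was lower, so falls and rises are not on equal terms. Aes, a corepressor of the Groucho family, went from 72.1% of 272 reads to 35.8% of 106 reads. Spint1, an inhibitor of serine proteases, went from 63.3% of 294 reads to 28.3% of 120 reads. Entpd6 encodes a nucleoside diphosphatase, and its site at chr2:150760174 in exon 5 fell from 32.7% of 553 reads (28.95 to 36.7%) to 10.4% of 154 reads (6.50 to 16.2%, adjusted p = 3.19e-08 by Fisher's exact test). These 3 falls exceeded 20 points. The other 7 fell by 13.0 to 19.1 points. They lie in Ndfip2 (an adaptor of Nedd4 ubiquitin ligases), Spint2 (a relative of Spint1), the chaperone gene Bag6, the nuclear pore gene Nup160, the phosphodiesterase gene Pde1b, Bod1 (chromosome biorientation) and Ofd1 (centrioles). Only Aes and Spint1 among the 10 were still past the threshold when all reads were divided by 5, a setting that stands for duplicate reads.

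Type II sites rose less than Type I sites. The 6125 Type I sites went from a median of 20.6% to 45.1%, with a median difference of 19.7 points, and 67.1% of them were higher. The 353 Type II sites went from 23.8% to 36.6%, with a median difference of 11.5 points, and 48.7% were higher. The gap was there at depth too, with 15.2 points for 2015 Type I sites and 7.19 points for 112 Type II sites that had at least 100 reads in both libraries. Type I sites that also lack G in the next 4 bases did not show this gap, as 90 of them had a median of 20.5 points. Of the 68 lower sites, 9 (13.2%) were Type II, against 5.45% of all shared sites. Whether the classes differ beyond what separate libraries of 1 stage would show was not tested, as no stage has a second library.

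Of the 112 deeply read Type II sites, 56 were higher and 5 lower. Lyrm4, needed for iron-sulfur clusters, rose from 46.4% of 239 reads to 80.6% of 124 reads. Dsn1, a kinetochore gene, rose from 27.2% of 662 reads to 56.8% of 354 reads (adjusted p = 5.41e-19, Fisher's exact test). In the 3′ UTR of the transcription factor gene Klf11 the rise was from 32.3% of 269 reads to 66.4% of 116 reads, which just missed the threshold with reads divided by 5 (Fisher's exact test, adjusted p = 0.0502). Lsm14b, which encodes a protein of stored-mRNA granules, had 19.7% of 5244 reads (18.7 to 20.8%) in the GV oocyte and 20.6% of 1513 reads (18.6 to 22.7%) in the embryo. That deeply read site did not differ beyond counting error (adjusted p = 0.554 by Fisher's exact test), and 4 of the 5 shared sites of Lsm14b were higher.

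Other features of the site went with smaller differences in the rise. The median was 19.4 points in the CDS (4709 sites), 17.7 points in the 5′ UTR (715) and 19.7 points in the 3′ UTR (948). Across codon positions 1 to 3 it was 18.8, 19.6 and 19.6 points. Sites predicted to be paired in the folded window of RNA around them had 19.7 points and unpaired ones 18.7 points. By distance from the transcript start the medians lay between 17.96 and 22.6 points, the latter in the class farthest from it. Depth was not matched between these classes. The farthest class had a median of 50 embryo reads and the class with the lowest median had 77. The nearest class also had 50, with a median of 19.0 points.

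Sites of one mRNA did not move as a unit. In 1516 genes with several shared sites, the intraclass correlation of the ln odds shift was 0.0794, and it was 0.107 over the 481 genes with several sites of at least 100 reads in both. In 763 genes with 3 or more sites, every site had a higher value in 522 (68.4%), and no site had in 1. A lower site past the test was found in 67 genes, 37 of which also had a higher one. Where sites of a gene were at least 30 points apart in the GV oocyte, 94.9% of 1488 pairs kept their order. Where they were under 10 points apart, 59.5% of 2666 pairs did. Pairs 1 to 10 nt apart differed by a median of 15.1 points in their change and pairs over 500 nt apart by 16.1 points. With at least 100 reads in both libraries the order turned, with 14.3 points for pairs 1 to 10 nt apart, 9.64 points for those over 100 and up to 500 nt apart and 12.5 points for those farther apart.

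Among 192 genes with 5 or more shared sites, the highest medians belonged to Srf (41.5 points), Zswim8 (38.4), B4galt6 (37.6), Ssrp1 (35.6) and Wdr5 (34.8). Wdr5, the core subunit of histone H3 lysine methyltransferases, was the most deeply read of them, and all 5 of its sites were higher. They went from 28.9% to 42.6% in the CDS and, along the 3′ UTR, from 61.2% to 86.5%, from 44.2% to 79.0%, from 30.6% to 69.0% and from 29.7% to 83.2%, with 107 to 383 reads each in the embryo. Srf, a transcription factor of actin and immediate early genes, had sites at 37.1%, 23.3%, 75.5% and 13.7% in exon 1 that rose to 78.6%, 100%, 100% and 55.3% of 21 to 42 reads. Its site in exon 7 stayed near its level, with 16.0% of 570 reads and 16.4% of 134 reads (adjusted p = 0.927, Fisher's exact test). Ssrp1, a subunit of the FACT histone chaperone, had 3 sites that rose by 35.6 to 40.4 points and 2 that differed by 2.19 and 6.35 points without passing the test.

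The lowest medians belonged to Dazap2 (-2.71 points), Jup (-2.45), Entpd6 (-1.47), Spint1 (-0.451) and Insm1 (0.682). Dazap2, which encodes a small proline-rich adaptor, has neighbouring cytosines in its 3′ UTR, printed here because they are adjacent.
Dazap2 site 4: ccacucaggcucCCAGGaguuuccugagg
Dazap2 site 5: cacucaggcuccCAGGAguuuccugaggu
The first went from 67.1% of 331 reads to 86.1% of 137 reads. The second had 15.9% of 328 reads and then 13.1% of 137 reads. The neighbours thus parted further, the first passing Fisher's exact test (adjusted p = 5.41e-05) and the second not (adjusted p = 0.548, exact test).

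In Entpd6 the sites of exon 5 crossed. The one at chr2:150760138 rose from 10.1% of 523 reads to 29.8% of 131 reads (adjusted p = 3.06e-07, Fisher's exact test), while the one 36 nt downstream was the fall from 32.7% to 10.4% given above.
Entpd6 site 3: acccuuccuuguCGGGGaugacuguguuu
Entpd6 site 4: gaacggcacagaCGAAGguguuucggccu
Spint1 showed the same mixture, with its fall to 28.3% beside a CDS site in exon 6 that rose from 55.6% of 372 reads to 81.0% of 158 reads. Insm1, a zinc-finger repressor of neuroendocrine development, had 6 of its 9 sites without a difference past the test. Its site highest in the GV oocyte had 96.0% of 299 reads and 92.0% of 113 reads. Another of its sites, of Type II, rose from 57.3% of 267 reads to 92.6% of 94 reads. Jup, which encodes plakoglobin, had 1 site that rose, from 15.9% of 107 reads to 42.4% of 33 reads, and 5 that did not pass the test.

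**Figure D3:**
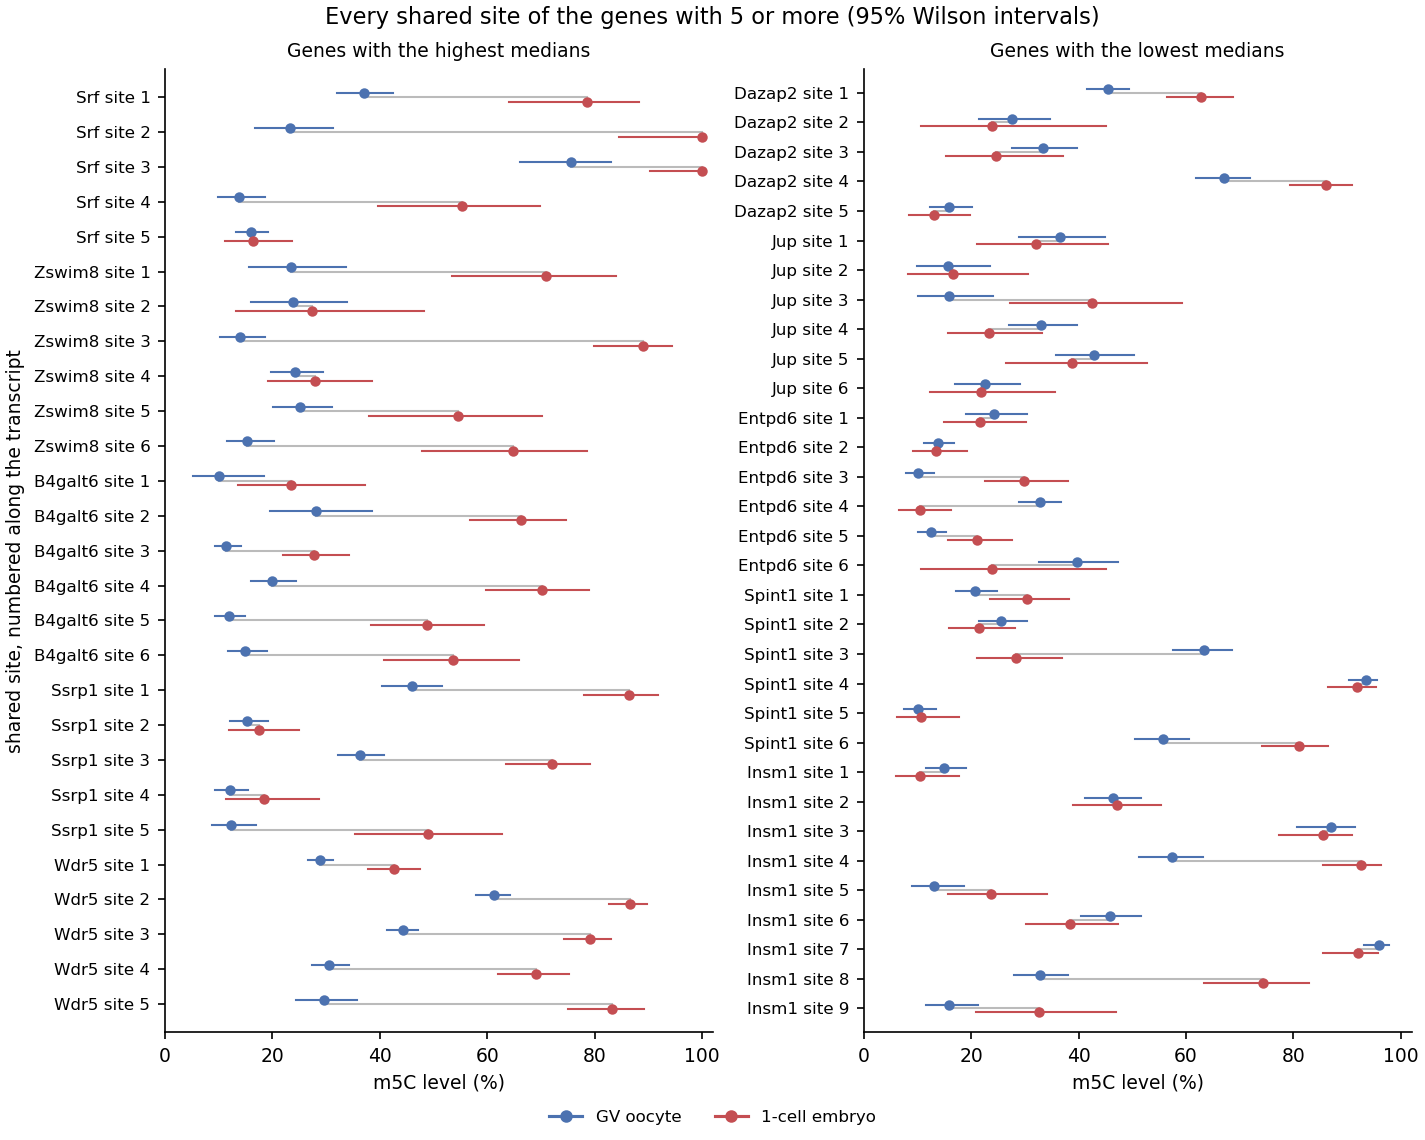
Every shared site of the 5 genes with the highest (left) and the 5 with the lowest (right) median difference among genes with at least 5 shared sites, numbered along the transcript, with the m5C level (x axis, %) in the GV oocyte (blue) and the 1-cell embryo (red) and 95% Wilson intervals. All 5 sites of Wdr5 are higher in the embryo, while sites 3 and 4 of Entpd6 move in opposite directions.

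Gene lists chosen for this transition are given next, each against the background of 66.1% of sites higher and 1.05% lower. The share of higher sites depended on embryo depth, with 58.0% at 30 to under 50 reads and 84.7% at 200 reads or more, and the lists differ in depth. The median embryo coverage was 290 reads for the maternal-effect sites and 167 for those of transcription factors, against 64 over all shared sites. With reads divided by 5, the rises of Zfp57, Ooep, H1foo, Cnot11, Cpeb3 (its most covered site), Bub1b, Anapc2, Foxo3 and Klf17 were no longer past the threshold. Of 10 genes for the zona pellucida and oocyte-secreted factors, 7 had shared sites, and 8 of their 10 sites were higher and none lower (80%, median 18.9 points). The site of Gdf9, a growth factor that the oocyte sends to its cumulus cells, went from 45.3% of 16549 reads to 58.3% of 648 reads. Zp1, a cross-linker of the zona, went from 45.1% of 2783 reads to 96.7% of 120 reads (51.5 points, adjusted p = 5.16e-32 by Fisher's exact test). Fgf8 rose from 10.3% of 1473 reads to 46.3% of 82 reads. Bmp15, the partner of Gdf9, stayed at 12.5% of 5063 reads (11.6 to 13.5%) against 13.1% of 2366 reads (11.8 to 14.6%, adjusted p = 0.522, Fisher's exact test). Its intervals overlap over most of their length.

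Maternal-effect genes, whose products are laid down in the oocyte for the embryo, had the most reads in all among these lists, 342859 in the GV oocyte and 170571 in the embryo. Of 27 genes 18 had shared sites, and 34 of their 47 sites (72.3%) were higher and 1 lower, with a median of 9.27 points. That share is above the one over all sites and below the one over sites with 200 embryo reads or more. Zbed3, of the subcortical maternal complex, had 11.1% of 60941 reads in the GV oocyte and 20.7% of 26806 reads in the embryo. Tle6 and Ooep, further members of that complex, went from 12.0% of 11543 reads to 37.7% of 1247 reads, and from 12.6% of 10550 reads to 15.9% of 4013 reads. All 3 passed Fisher's exact test, yet the rise at Tle6 was 25.7 points and that at Ooep 3.28 points. Zar1, an RNA-binding protein of stored mRNA, rose from 14.8% of 10251 reads to 27.0% of 3055 reads. Zfp57, which guards imprints, rose from 20.5% of 10116 reads to 28.2% of 1048 reads. The site of H1foo, the oocyte linker histone, rose by 9.23 points and that of Npm2, the nucleoplasmin of the egg, by 7.18 points. The lower site of this list was in Ctcf, a chromatin insulator protein, with 56.8% of 74 reads and 31.2% of 32 reads.

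Factors that remove stored mRNA had 28 of 42 sites higher (66.7%) and none lower in 20 of 40 genes, with a median of 18.7 points. Btg4, the adaptor that brings the CCR4-NOT deadenylase to maternal mRNA, had one of the highest starting levels, 77.8% of 7095 reads, and reached 91.7% of 3062 reads. Dcp1a, a cofactor of decapping, went from 42.7% of 1734 reads to 98.7% of 150 reads (56.0 points, adjusted p = 2.21e-46 by Fisher's exact test). Edc4, its scaffold, rose from 42.3% of 971 reads to 75.4% of 114 reads, and Cnot11 of the deadenylase complex from 15.5% to 26.3%. The helicase gene Upf1 of nonsense-mediated decay had 16.7% of 2003 reads and 19.7% of 193 reads, a difference within counting error.

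Of 29 genes for translational control, 13 had shared sites, of which 17 of 24 (70.8%) were higher and 1 lower. The site of Pabpc1l, the poly(A)-binding protein of the oocyte, rose from 14.9% of 2049 reads to 31.2% of 551 reads. Cpeb3, which binds the cytoplasmic polyadenylation element, held both directions within 18 nt. At chr19:37025039 it went from 13.3% of 331 reads to 55.1% of 49 reads, and at chr19:37025057 from 39.2% of 352 reads to 17.3% of 52 reads (adjusted p = 0.00355 by Fisher's exact test). Its most covered site reached 100% of 99 reads from 87.0%.

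The cell cycle list had 23 of 33 sites higher (69.7%) and none lower in 22 of 46 genes. Plk1, a mitotic kinase, rose from 16.9% of 1654 reads to 42.9% of 587 reads, and Aurkc, the meiotic Aurora kinase, from 49.1% of 1533 reads to 69.1% of 457 reads. Separase (Espl1), which cuts cohesin, went from 16.4% to 45.1%, and the checkpoint gene Bub1b from 17.9% to 36.6%.

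For DNA and histone methylation, 48 of 73 sites (65.8%) were higher and none was lower in 21 of 42 genes. Uhrf1, which recruits the maintenance methyltransferase, rose from 19.4% of 4359 reads to 40.7% of 1323 reads. Dnmt1, that methyltransferase, had 5 shared sites with 2139 to 6190 reads in the GV oocyte and 54 to 268 in the embryo, and 2 of them were higher. One went from 20.5% to 45.4%, and its most covered site had 18.3% and then 16.6% (12.0 to 22.5%). Tet3, the dioxygenase that oxidizes 5-methylcytosine in the paternal genome, had 14 shared sites, of which 10 were higher. A 3′ UTR site rose from 30.6% of 327 reads to 100% of 23 reads, and a 5′ UTR site from 42.9% of 161 reads to 93.3% of 104 reads. The most covered site, in the CDS, had 12.1% of 2633 reads and 12.2% of 394 reads (adjusted p = 0.963, Fisher's exact test). The Dnmt1 and Tet3 sites that did not pass the test thus lie in the same mRNAs as sites that rose by over 20 points.

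The list of RNA methylation enzymes and readers had 15 of 23 sites higher (65.2%) and none lower in 7 of 26 genes, with 14 of those sites in Tet3. Wtap and Virma, subunits of the m6A methyltransferase, went from 16.1% of 155 reads to 65.4% of 78 reads and from 33.1% of 320 reads to 100% of 26 reads. The m6A readers Ythdf3 and Ythdc1 did not pass the test, with 18.1% of 514 reads and 19.9% of 307 reads for the first and 37.1% of 337 reads and 37.9% of 29 reads for the second. Transcription factors of genome activation and pluripotency had 23 of 27 sites higher (85.2%) and 1 lower, the Ctcf site given above, in 10 of 33 genes. Sall4, a stem-cell factor that the oocyte stores, rose from 16.5% of 2320 reads to 54.9% of 175 reads. Yap1, a coactivator that is supplied maternally, rose from 75.1% of 2779 reads to 86.6% of 1166 reads at its most covered site, and all 5 of its sites were higher. Foxo3, Klf17 and Nfyc gained 9.80, 7.51 and 17.3 points.

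**Figure D4:**
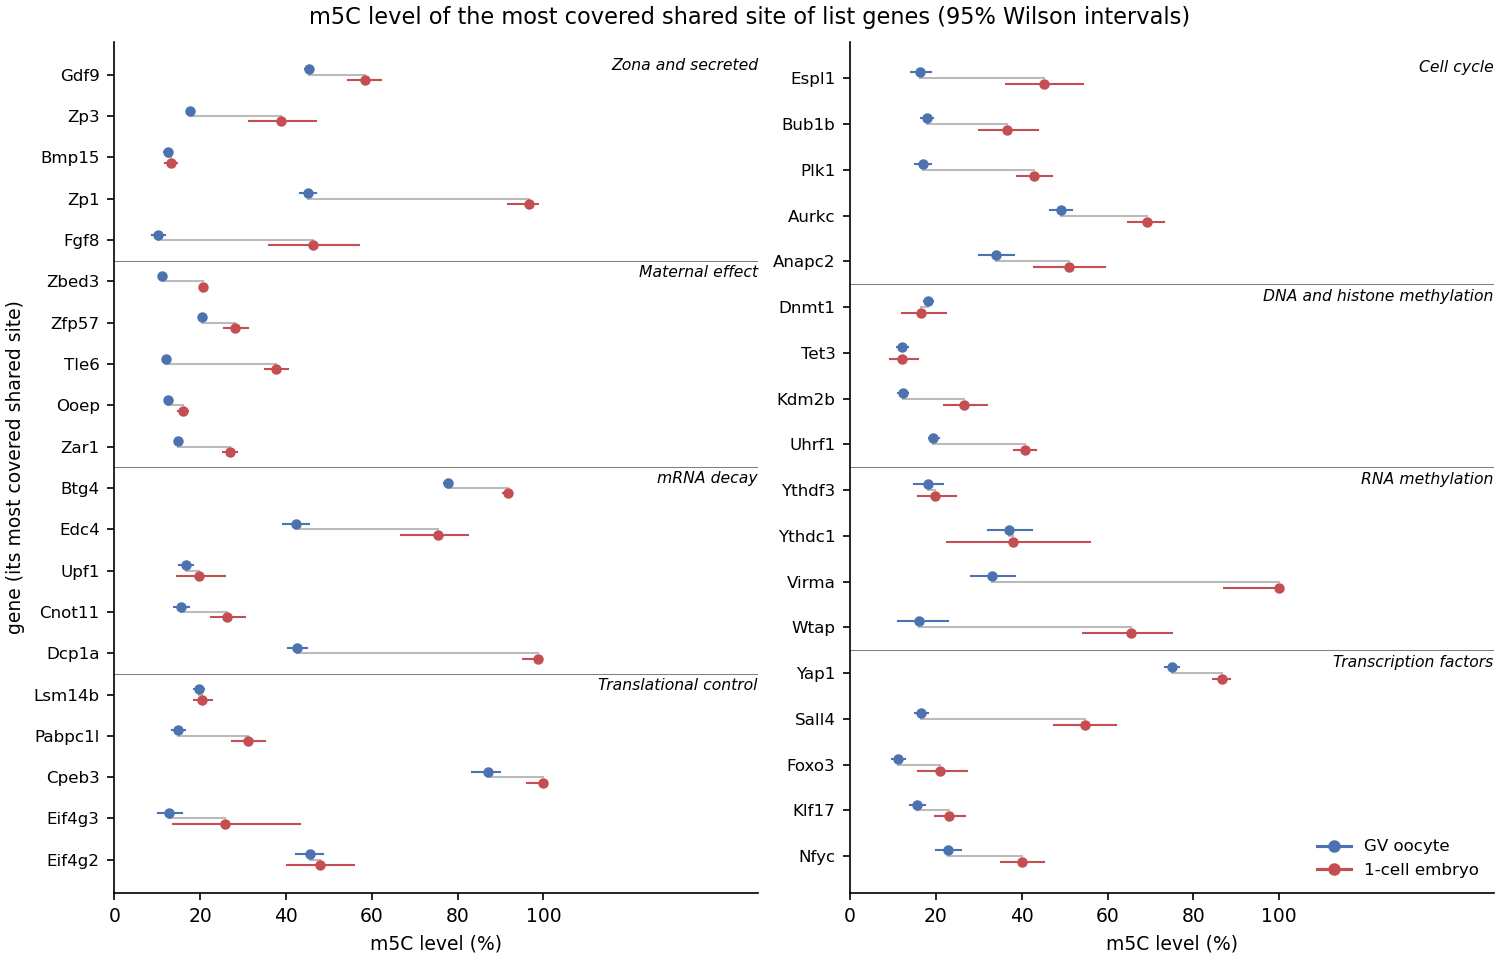
The most covered shared site of up to 5 genes of each list (rows, a gene of several lists drawn once), with the m5C level (x axis, %) in the GV oocyte (blue) and the 1-cell embryo (red) and 95% Wilson intervals. Most sites move right, to 96.7% in Zp1 and 98.7% in Dcp1a, while the intervals overlap in Bmp15, Upf1, Lsm14b, Eif4g3, Eif4g2, Dnmt1, Tet3, Ythdf3 and Ythdc1.

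Coverage was compared per gene, as the median over its shared sites of the ratio of embryo to GV reads. Raw coverage was 3.45-fold lower in the embryo at the median gene, and all further ratios are relative to it, on the log2 scale. The quartiles of genes were -0.609 and 0.550. A relative ratio past 4-fold lower was found in 95 of 3413 genes (2.78%), and one past 4-fold higher in 19 genes (0.557%). The 1-cell list needs at least 20 reads at a site, so a gene with low GV coverage could not be past 4-fold lower. The share of 2.78% is therefore no matched background for deeply read genes. Coverage at called sites is a stand-in for abundance, and a lower abundance and a loss of poly(A) tail cannot be told apart in it, since the labels name polyadenylated RNA where the methods name RNA depleted of ribosomal RNA.

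The lowest ratio was that of Ccdc6, a coiled-coil protein gene, with 4240 reads in the GV oocyte and 37 in the embryo (-5.05). Usp9x, a deubiquitinase gene, had 2500 reads and then 30. Zp3, a structural protein of the zona, had 7358 reads and then 149 (-3.84), and Rnf40, a ligase for histone H2B, had 972 and 20. The histone gene Hist2h2aa1 had 988 and 25 reads, but it has near-identical copies that can share reads. These genes rest on 1 shared site each. Of the zona and secreted-factor genes, 4 of 7 were past 4-fold lower (Zp3, Gdf9, Zp1 and Fgf8), at -3.84 to -2.004. These 4 were deeply read in the GV oocyte, with 1473 to 16549 reads at the most covered shared site. Bmp15 was at 0.688.

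Maternal-effect genes split in the same way, with Khdc3 (-3.26), Nlrp2 (-2.35) and H1foo (-2.27) past 4-fold lower, and Npm2 (0.630), Zbed3 (0.601) and Btg4 (0.574) above the median gene. Dnmt1 was at -3.22, and Dcp1a, Eif4g3, Bub1b and Btrc were also past 4-fold lower in their lists. At the other end, Rpph1, the RNA of ribonuclease P, had 1396 to 2044 reads and then 4928 to 7268 over 5 sites (3.72), which overlap Ccnb1ip1. Cited2, a transcriptional coregulator, had a median of 116 reads and then 361 over 3 sites (3.44), and Gas2l3, which links actin and microtubules, was at 2.22 with 1 site. Pmm1, at 1.98 over 3 sites, and Gm47305, at 1.75 at a site shared with Rn7s2, were under 4-fold.

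Coverage and level moved largely apart from each other. Across the 3413 genes the Spearman rho between the relative coverage ratio and the median level difference was -0.0519, and these values share the reads of the embryo. The 95 genes past 4-fold lower had 175 shared sites, of which 121 (69.1%, against 66.1% of all shared sites) were higher in level and 3 lower, with a median of 23.7 points at a median of 44 embryo reads. The 19 genes past 4-fold higher had 27 sites, of which 14 (51.9%) were higher, with a median of 10.5 points at a median of 62 reads. Within the zona list, Zp1 paired low coverage with a rise of 51.5 points and Gdf9 with one of 13.0 points.

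**Figure D5:**
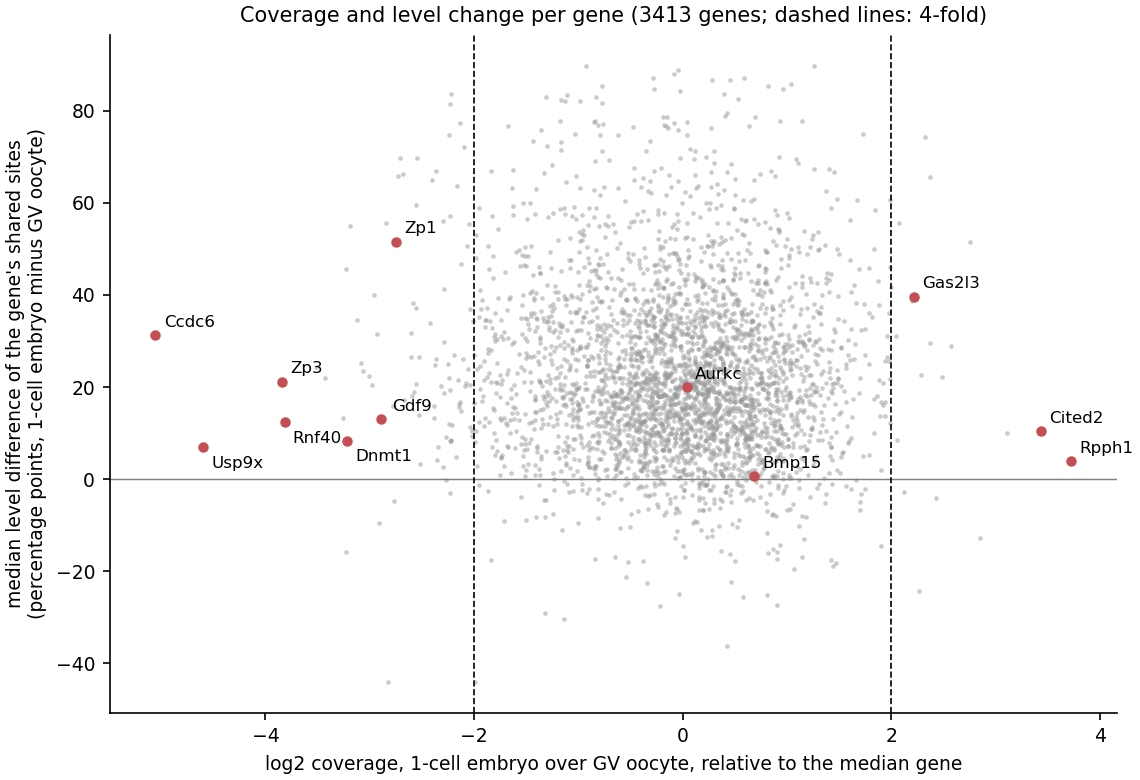
Each point is a gene with shared sites, at its log2 coverage ratio relative to the median gene (x axis) and the median level difference of its sites (y axis, percentage points), with dashed lines at 4-fold. The cloud of 3413 genes shows no slope by eye (Spearman rho -0.0519), and Zp3, Gdf9, Zp1 and Dnmt1 (red, labelled) lie left of the 4-fold line while Bmp15 and Aurkc lie near the middle.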

How the data were processed

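Coverage in the deposited lists is a read count (C plus T), and the deposited m5C level is a fraction, given here in percent. The deposited p-value is from the authors' binomial test, one-sided, with the gene's own conversion rate as null. Per the labels and methods, reads were trimmed (cutadapt, Trimmomatic 0.36) and aligned to GRCm38 with HISAT2 and Bowtie2 2.2.9. The labels and the study differ on the versions of cutadapt and HISAT2. Level times coverage was whole to within 2.28e-05 reads. Of the MII list only site names were counted.

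Sites were tested with Fisher's exact test (scipy 1.17.1) and placed on GENCODE M21 transcripts by gene identifier (3412 of 3413 matched), in the order CDS, 5′ UTR, 3′ UTR, other exon. All 6473 shared sites on chromosomes were C in GRCm38. RNAfold (ViennaRNA 2.7.2) folded 6399 windows of 101 nt at 37 °C. The test and the background recovery were checked on simulated data.

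Sites named are the 10 highest and 10 lowest differences at 100 reads in both libraries past the test, 3 Type II sites, and the most covered site of up to 5 genes per list. Genes named are the 5 at each end of the median difference (5 or more sites) and of coverage (median of 100 reads in the higher library). Other sites of these genes, and Ctcf and the Cpeb3 pair, were named after their values were seen. Members and lists were chosen with earlier results of these data known.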

Additional observations from a re-analysis of the deposited data

How the results depend on the processing

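With 1 library per stage no replicate could be left out. No paired analysis was possible because each stage has a single library. A coverage minimum of 50 reads in both libraries kept 3984 sites, 2762 of them higher, with medians of 16.3 points over all, 16.7 for Type I, 8.20 for Type II, 16.2 in the CDS, 15.3 in the 5′ UTR and 17.7 in the 3′ UTR. At 100 reads, 2127 sites were left, 1606 higher and 22 lower, with medians of 14.75, 15.2, 7.19, 14.75, 14.2 and 16.1 points in the same order. A level minimum of 20% left 3244 sites, 2193 higher and 30 lower, with medians of 22.4 points over all, 22.9 for Type I, 22.6 in the CDS, 19.95 in the 5′ UTR and 22.4 in the 3′ UTR. Thinning to 20 reads a library left 2891 sites, 489 higher and 2 lower, with a median of 20 points over all, in the CDS and in the 5′ UTR, and 15 for Type II. Fewer sites or reads by construction lower these counts. Reads divided by 5 gave 1368 higher and 5 lower sites, and an adjusted p under 0.01 gave 32 lower. The median over genes was 20.3 points. The higher sites outnumbered the lower ones in every setting run.

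The genes past 4-fold in coverage numbered 13 lower and 4 higher among the 763 with at least 3 shared sites, and 45 lower and 4 higher among 2203 at 50 reads. Of 63 named sites, Pde1b, which had passed the test, reversed to 5 points when thinned (adjusted p = 1, exact test). Of those that had not passed, Eif4g2 and Ythdc1 went to -5 points when thinned, Ythdc1 to -3.98 points with reads divided by 5, and Tet3 to -0.156 points with the background taken off. With reads divided by 5, 18 of the 63 were no longer past the threshold, and 18 of those that thinning kept were not after it. Embryo depth limits single sites, and sites under the calling limits could not be seen.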

Other observations

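At 461 shared sites every read of the 1-cell embryo was unconverted, and no shared site was at 100% in the GV oocyte. The GV levels of these sites ran from 10.2% to 95.1%, with a median of 54.5%. Their coverage in the embryo ran from 20 to 226 reads, with a median of 31, and 19 of them had at least 100 reads. In the GV oocyte their median coverage was 157 reads. A level of 100% is reached more easily with few reads, so the libraries are not compared at equal depth here.

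Shared sites also lay in RNAs that encode no protein. The 36 sites in 32 lincRNA genes went from a median of 23.5% to 56.3%, with a median difference of 22.9 points and 24 sites (66.7%) higher by Fisher's exact test, against 66.1% of all shared sites. All 11 sites in antisense genes had a higher value, as had 5858 of all 6478, with a median of 29.4 points, but reads of an antisense gene and its partner were not separated here. The 5 sites of Rpph1, at 4928 to 7268 reads in the embryo, had differences of 0.706 to 7.81 points, and 3 of them were higher. The unconverted background of Rpph1 was 1.41% in the GV oocyte and 1.93% in the embryo, against medians of 0.302% and 0.490% over shared sites.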
